A study of Mus musculus with 103 samples.

Results

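The genes of aminoacyl-tRNA synthetases and of RNA modification enzymes, most of which act on tRNA, were followed in single mouse embryos at the 2-cell stage. They were taken from the expression table by symbol: the synthetases by names such as Rars or Fars2, and the modification enzymes by names that begin with Trmt, Nsun, Pus, Dus, Elp or Alkbh and go on with a digit, with the Dusp phosphatases left out. This gave 49 of the 7894 genes in the table. Of these, 21 were synthetases, 18 of them classed by symbol as cytosolic and 3 as mitochondrial. The other 28 were modification genes (14 of the methyltransferase families, 4 pseudouridine or dihydrouridine synthases, 5 Elongator subunits and 5 AlkB homologues). The 28 were taken by name, and not every AlkB homologue is known to modify RNA. Other genes of these families are not analysed here.

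The embryos were of the FVB strain and were made by intracytoplasmic sperm injection (ICSI), in which a whole sperm or its severed head is placed directly into the oocyte, and all were collected 28 hours later for RNA sequencing of each embryo on its own. Every oocyte donor had been fed the Control diet, and nothing in the labels names an allele or a transgene in any group. Embryos from sperm heads were of 4 groups: cauda epididymis, Control-fed males (n = 20), cauda, Low Protein (LP) males (n = 17), rete testis, Control males (n = 22), and rete, LP males (n = 23). Whole sperm from the cauda gave 9 embryos and whole sperm from the rete 12, and for these the labels give no diet of the males, which the header of the table gives as Control. The rete testis is where sperm leave the testis, and the cauda epididymis is where mature sperm are stored, so the comparisons ask whether the diet of the father, the maturity of the sperm or the injected part of the sperm goes with a difference in the embryo's RNA. Neither a father nor an injection date is given for any embryo, so p-values measure the spread between embryos alone.

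Aminoacyl-tRNA synthetases join each amino acid to its own tRNAs, and several of the cytosolic enzymes sit together in a multi-synthetase complex. Modification enzymes alter single bases of the tRNA after transcription, which sets how well it is read by the ribosome and how readily it is cut into the small fragments that sperm are known to carry. The mouse embryo switches its genome on mainly at the 2-cell stage, while RNA stored in the oocyte is removed, so the level of any of these genes is the sum of what the oocyte left and what the embryo has made.

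Expression was read in CPM, the reads of a gene scaled to an equal library size. Depth ran from 529863 to 6058308 reads, with a median of 1104924 in the 82 head embryos and 3295885 in the 21 whole-sperm embryos, and 1 read was worth 0.165 to 1.89 CPM. The table writes 0.1 in place of 0, and such values are called undetected here. Embryos with few detected genes stood apart, 1 each in the Control cauda head, Control rete head, LP rete head and cauda whole-sperm groups, and values of named genes whose call changed without them are given beside the result. All 10 of the 2-cell embryo markers looked for were in the table, and their summed level had group medians from 2184 to 4474 CPM. Of the markers of other cells that could cling to an embryo or sperm, few were in the table: 3 of 9 for cumulus cells, 2 of 7 for sperm, 1 of 6 for testicular somatic cells and 1 of 5 for epididymis. Group medians of their summed level ran from 197 to 299 CPM for cumulus cells and from 214 to 376 CPM for sperm (Odf2 and Ldhc). They ran from 94.3 to 472 CPM for Gata4 of testicular somatic cells and from 42.8 to 63.8 CPM for the epididymal Aqp9. The source of this RNA was not tested.

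Compared per length of transcript, the cytosolic synthetases were led by Farsb, the beta subunit of phenylalanyl-tRNA synthetase, with a mean over all embryos of 87.2 CPM per kb. Iars (isoleucine) followed with 86.4 CPM per kb and Kars (lysine) with 70.1 CPM per kb, and Tars (threonine) was lowest with 4.39 CPM per kb. Phenylalanyl-tRNA synthetase needs an alpha subunit for each beta subunit, yet Farsa, which encodes the alpha subunit, had a mean of 11.4 CPM per kb. In CPM, Farsb was above Farsa in 101 of 103 embryos. Among the mitochondrial synthetases, Fars2 (phenylalanine) had a mean of 31.6 CPM per kb, Mars2 (methionine) 17.9 CPM per kb and Cars2 (cysteine) 15.6 CPM per kb.

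Of the modification genes, Elp5 stood highest of all 49, with a mean of 199 CPM per kb. It encodes a subunit of Elongator, the complex that starts the modification of the wobble uridine, and its partner Elp6 had 42.6 CPM per kb, the subunit Elp2 10.8 CPM per kb and Elp4, the lowest of all 49, 2.91 CPM per kb. Elp3, the catalytic subunit, had a mean of 7.59 CPM per kb. The methyltransferase genes were led by Nsun4, which encodes a mitochondrial enzyme of ribosomal RNA, with 185 CPM per kb. Trmt112, the activating partner of several methyltransferases, had 126 CPM per kb and Nsun2, a cytosine methyltransferase of tRNA, 54.8 CPM per kb, while Trmt1l was lowest of that class with 3.58 CPM per kb.

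The pseudouridine synthase gene Pus7 had a mean of 27.3 CPM per kb, the dihydrouridine synthase genes Dus2 and Dus1l had 14.2 and 12.2 CPM per kb, and Pus3 had 7.71 CPM per kb. Among the AlkB homologues, Alkbh5, an eraser of adenosine methylation in mRNA rather than a tRNA enzyme, had 54.3 CPM per kb. Alkbh4 had 21.6 CPM per kb, Alkbh1, which removes methyl groups from tRNA among other targets, 16.5 CPM per kb, and Alkbh7, a mitochondrial protein, was lowest with 11.9 CPM per kb. The deposited values of Pus7, Nsun5, Trmt13, Alkbh1 and Alkbh5 held fractions of a read in more than 40% of embryos, so these are estimated counts whose making is not given, and the levels of these 5 genes are less certain. The other 44 did so in fewer than 10% of embryos.

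**Figure D1:**
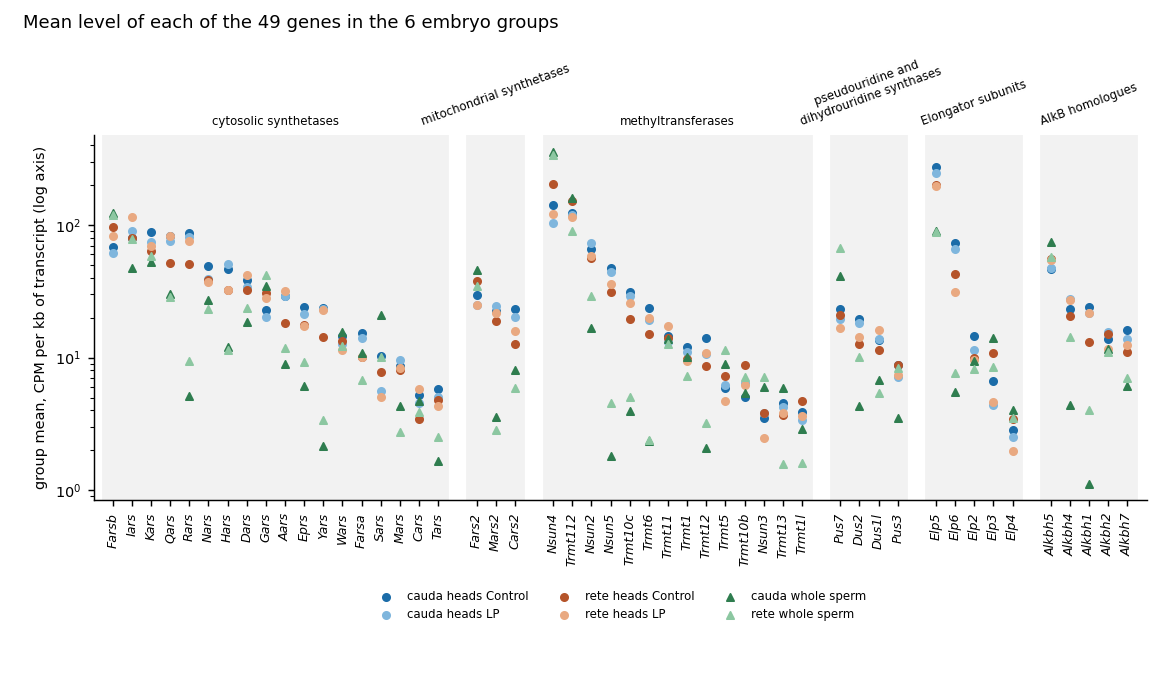
Group means in CPM per kb of transcript (log axis) of the 49 genes, by role and, within a role, by mean level. Circles are sperm-head groups and triangles whole-sperm groups. The whole-sperm triangles of Rars, Yars, Nsun5 and Alkbh1 lie far below the head circles, and those of Nsun4 above them.

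Embryos of the same group differed widely in these genes. The SD of log2(CPM + 1) within groups had a median of 1.29 over the 49 genes, against 1.13 over all 7894 genes. It was largest for Nsun5 (1.84), a methyltransferase of the large ribosomal RNA, followed by Mars2 (1.72), Farsa (1.71), Elp3 (1.68) and Hars (histidine, 1.67). It was smallest for Kars (0.57), Alkbh5 (0.64) and Dars (aspartate, 0.67). Of the 49 genes, 17 were detected in every embryo. Kars, for example, ran from 126 through a median of 183 to 277 CPM in Control cauda head embryos, while Nsun5 ran there from 5.99 through 109 to 215 CPM. Kars was thus alike in these embryos, and Nsun5 spread over more than an order of magnitude. In LP rete head embryos Kars was wider, from 8.56 through a median of 152 to 228 CPM.

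Where the promoters are concerned, RefSeq windows of 300 bases (250 before and 50 after a transcription start, GRCm38.p6) were at hand for 38 of the 49 genes, in 44 windows. Because several synthetase genes are known targets of the amino acid response factor ATF4, the windows were searched on both strands for the letters TGATGNAA, the core of the element bound by ATF4 with C/EBP partners, and for the E-box CACGTG, which MYC-family factors bind. The ATF4 core was in 5 of 16 synthetase windows (31.2%), those of Iars, Yars, Tars, Aars and Gars, in 1 of 28 windows of modification genes (3.57%, that of Pus7), and in 3.97% of all 32851 windows. The E-box was in 25% of synthetase windows, 10.7% of modification windows and 7.15% of all windows. The windows of Aars, Iars, Yars and Gars are printed because these 4 genes carry the core and are followed below. In head embryos Aars, Iars and Yars rose with an index of embryo state (described below), and Gars fell. Tars, whose window is not printed, rose as well. All are on the plus strand, capitals mark the ATF4 cores and E-boxes on either strand, and a match describes the letters and not a bound site.

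Aars, chr8:111033592-111033891: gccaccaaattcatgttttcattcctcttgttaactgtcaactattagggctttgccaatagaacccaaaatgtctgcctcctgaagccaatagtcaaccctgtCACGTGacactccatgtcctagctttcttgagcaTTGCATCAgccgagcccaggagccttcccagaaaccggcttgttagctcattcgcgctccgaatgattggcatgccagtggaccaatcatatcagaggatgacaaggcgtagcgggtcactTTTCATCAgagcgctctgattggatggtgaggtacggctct
Iars, chr13:49681880-49682179: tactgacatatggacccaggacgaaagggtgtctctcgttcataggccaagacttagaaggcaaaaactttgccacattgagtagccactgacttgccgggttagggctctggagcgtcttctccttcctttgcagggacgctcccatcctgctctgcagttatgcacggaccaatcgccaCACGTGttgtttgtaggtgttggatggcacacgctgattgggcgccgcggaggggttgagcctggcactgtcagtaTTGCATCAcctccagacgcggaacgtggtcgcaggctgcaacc
Yars, chr4:129189653-129189952: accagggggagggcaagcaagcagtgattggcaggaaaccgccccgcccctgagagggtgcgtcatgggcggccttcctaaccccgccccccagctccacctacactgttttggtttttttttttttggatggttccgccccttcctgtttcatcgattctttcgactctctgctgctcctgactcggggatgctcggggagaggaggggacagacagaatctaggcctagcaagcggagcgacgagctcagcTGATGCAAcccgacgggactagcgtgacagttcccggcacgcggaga
Gars, chr6:55037751-55038050: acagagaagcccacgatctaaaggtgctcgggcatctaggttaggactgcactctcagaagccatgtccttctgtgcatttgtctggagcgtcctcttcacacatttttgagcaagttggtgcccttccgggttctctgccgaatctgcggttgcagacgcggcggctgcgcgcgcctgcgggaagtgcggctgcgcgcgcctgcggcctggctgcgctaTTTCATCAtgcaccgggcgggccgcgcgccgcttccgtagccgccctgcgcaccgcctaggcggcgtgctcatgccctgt

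The core lies at -112 and again at 10 from the start in Aars, with an E-box at -146. In Iars it lies at 8 with an E-box at -69, in Yars at 4, and in Gars at -30, each position being that of the first base of the match. In all, 7 motifs were searched in every window on both strands, the other 5 being motifs common in housekeeping promoters. The ETS motif, the letters CCGGAAGT, was in 21.4% of modification windows, 12.5% of synthetase windows and 3.89% of all windows. The NRF1 motif was in 21.4%, 25% and 4.60% in the same order, and the YY1 motif AAGATGGCG in 10.7%, 6.25% and 1.40%. The GC box GGGCGG was in 46.4%, 68.8% and 35.7%, and the CCAAT box, the letters CCAAT, in 35.7%, 56.2% and 37.4%. Each of the 7 motifs was in a larger share of synthetase windows than of all windows, which was not tested.

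The father's diet was compared first, LP against Control, by a limma fit over all genes in the 82 head embryos with group means, tested two-sided and called at an adjusted p (Benjamini-Hochberg over all genes) under 0.05. In embryos from cauda heads no gene of the 49 was called, and 0% of the 7894 genes were called. The 49 had a median log2 fold change of -0.12, against 0.01 over all genes. Of all 7894 genes 163 had an unadjusted p under 0.05, and 1 of the 49 did. That gene was Sars (serine), which had a lowest value of 4.16, a median of 20.9 and a highest value of 85.6 CPM in Control cauda embryos, and was undetected in 1 LP embryo, with a median of 10.3 and a highest value of 46.8 CPM in the LP group. The groups overlapped over most of their range, and the log2 fold change was -1.14 (SE 0.44, limma adjusted p = 0.999). Kars differed by -0.28 (SE 0.21) and Nsun4 by -0.37 (SE 0.31), with limma adjusted p = 0.999 for both. The 95% interval of the diet difference lay within 1 on the log2 scale for 24 of the 49 genes and within 2 for 48, so for the rest a 2-fold difference was inside the interval.

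In embryos from rete heads, none of the 49 was called either in the fit as designed, while 1.49% of all genes were (0.393% higher and 1.1% lower). Of the 49, 14 had an unadjusted p under 0.05, beside 1809 of all 7894 genes. The median log2 fold change of the 49 was 0.06, against -0.03 over all genes. The 95% interval lay within 1 on the log2 scale for 21 of the 49 genes and within 2 for 45. The gene nearest to the threshold was Elp3, the catalytic Elongator subunit. It ran from 0.681 through a median of 15.1 to 113 CPM in Control rete head embryos and was detected in all 22, whereas in LP rete head embryos it was undetected in 8 of 23, with a median of 5.16 and a highest value of 34.7 CPM. The LP embryos with a detected value lay within the Control range. The log2 fold change of Elp3 was -1.75 (SE 0.51, limma adjusted p = 0.0525). This is a value at the threshold: in 5 of the 9 other settings it passed, with limma adjusted p down to 0.029, and with an index of embryo state as a covariate (described below) it was 0.298. Of the 9, no filter and a filter at 10 CPM left this fit unchanged, so they are not separate checks. Without the embryos of few detected genes 3 of the 49 were called, Elp3 (-1.66, SE 0.51, limma adjusted p = 0.048), Alkbh1 (1.40, SE 0.41, limma adjusted p = 0.0403) and Iars (0.75, SE 0.22, limma adjusted p = 0.0404), where Iars was 0.65 (SE 0.27, limma adjusted p = 0.146) with all embryos. Elp3 and Alkbh1 were called with quantile normalization, and these 3 and Yars with median-of-ratios scaling. The share of all genes called in these settings is not given here, so the gained calls cannot be set against it. With the index as a covariate none was called, Iars being 0.15 (limma adjusted p = 0.827).

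Yars (tyrosine) had medians of 41.8 CPM in Control and 61.3 CPM in LP rete head embryos, and was undetected in 4 Control embryos and in no LP embryo. Its log2 fold change was 1.39 (SE 0.46, limma adjusted p = 0.079). Alkbh1 had medians of 56.1 and 86.9 CPM in these groups, with a log2 fold change of 1.26 (SE 0.43, limma adjusted p = 0.089). For both, the groups overlapped over nearly their whole range, and Alkbh1 is one of the genes with fractional reads. With the index as a covariate, Yars was 0.13 and Alkbh1 0.01 (limma adjusted p = 0.882 and 0.993). Whether diet acted differently with the 2 sources of heads was tested by the interaction term, rete minus cauda, which was called for none of the 49 and for 0.19% of all genes. The nearest were Trmt10b, with a difference of -1.41 (SE 0.62, limma adjusted p = 0.495), Yars with 1.50 (SE 0.68, adjusted p = 0.516) and Elp3 with -1.64 (SE 0.76, adjusted p = 0.525).

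**Figure D2:**
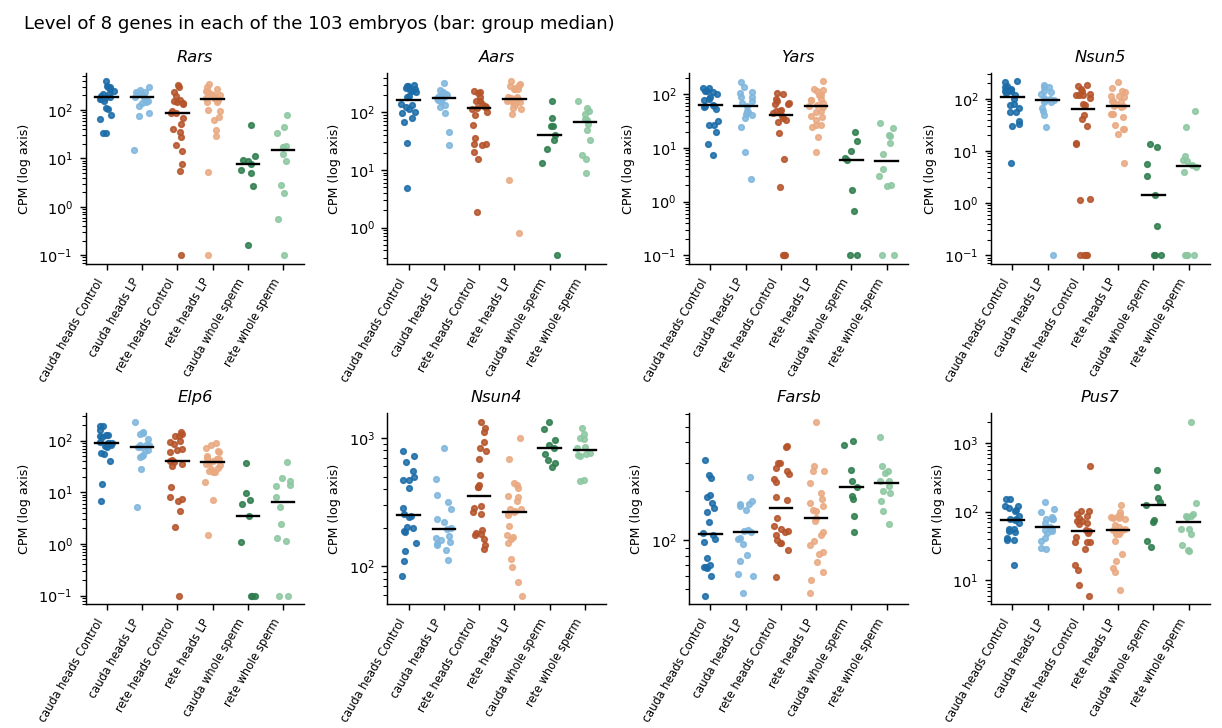
CPM (log axis, undetected values drawn at 0.1) of Rars, Aars, Yars, Nsun5, Elp6, Nsun4, Farsb and Pus7 in each of the 103 embryos, with the median of each group as a bar. The 4 head groups overlap for all 8 genes. Whole-sperm embryos are low for Rars, Yars, Nsun5 and Elp6 and high for Nsun4, where the cauda median was 830 CPM against 252 CPM in Control cauda head embryos.

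The source of the sperm was compared next, rete against cauda, within the same fit. With heads of Control males none of the 49 genes was called, and 0.038% of all genes were. Of the 49, 15 had an unadjusted p under 0.05, beside 1745 of all 7894 genes. A lower mean log2 value in rete embryos was found for 35 of the 49 and for 4476 of all genes. The median log2 fold change of the 49 was -0.47, against -0.10 over all genes. Nsun5 had medians of 109 CPM in cauda and 63.2 CPM in rete embryos and was undetected in no cauda and in 4 rete embryos, with a log2 fold change of -1.73 (SE 0.55, limma adjusted p = 0.167). Elp6 had medians of 90 and 41.1 CPM and a log2 fold change of -1.31 (SE 0.42, limma adjusted p = 0.167). Qars (glutamine) had medians of 239 and 132 CPM and a log2 fold change of -1.08 (SE 0.36, limma adjusted p = 0.167). The ranges overlapped in each case, the rete range being the wider at its low end. With the index as a covariate, which differed between these groups (below), Nsun5 was -0.34, Elp6 -0.45 and Qars -0.51 (limma adjusted p = 0.998 for each).

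With heads of LP males none of the 49 was called, against 0.076% of all genes. Of all 7894 genes 608 had an unadjusted p under 0.05, and 1 of the 49 did. That gene was again Elp6, with medians of 76.2 CPM in cauda and 38.6 CPM in rete embryos and a log2 fold change of -1.04 (SE 0.44, limma adjusted p = 0.534). Of the 23 rete embryos, 21 lay below the cauda median of Elp6. Nsun3, a methyltransferase of a mitochondrial tRNA, differed by -0.79 (SE 0.41, limma adjusted p = 0.645) and Gars (glycine) by 0.54 (SE 0.28, limma adjusted p = 0.65). The 95% interval of the source difference lay within 1 on the log2 scale for 20 of the 49 genes with Control heads and for 22 with LP heads.

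With whole sperm 48 of the 49 genes passed the filter on low values (5 CPM in at least 9 embryos), Trmt6 being the exception, and none was called, as were 0% of the 7782 genes tested. Of the 48, 4 had an unadjusted p under 0.05, beside 662 of the 7782 genes tested. Pus3 had a median of 5.62 CPM and was undetected in 2 of 9 cauda embryos, and it was detected in all 12 rete embryos, with a median of 14.3 CPM. The log2 fold change, rete against cauda, was 1.71 (SE 0.59, limma adjusted p = 0.527). Dus2 differed by 1.31 (SE 0.57, limma adjusted p = 0.555) and Iars by 0.79 (SE 0.38, limma adjusted p = 0.578). With these 21 embryos the interval lay within 1 on the log2 scale for 12 of the 48 genes.

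Whole sperm against heads gave the large differences. The preparation goes with depth (above) and with the location code in the table's header, CA2 for cauda heads and CA for cauda whole sperm, so these cannot be told apart from it. Markers of other cells moved with it too: of the 3 cumulus markers Amhr2 was lower by -4.18 and Gja1 by -1.61 and Serpine2 higher by 1.94 in cauda whole-sperm embryos, and Gata4 of testicular somatic cells was lower by -1.75 and Ldhc of sperm by -2.85 (limma adjusted p from 2.2e-06 to 0.018), while Odf2 of sperm and the epididymal marker were not called. For rete sperm none of these 7 was called. Their part in the results was not tested. In the fit over all 103 embryos, cauda whole sperm against Control cauda heads, 25 of the 49 genes fell and 4 rose, which is 29 called of 49, where 58.7% of all genes were called (34.3% lower and 24.4% higher). The number called is therefore near the background, while more of the calls were falls: the median log2 fold change of the 49 was -0.88, against -0.08 over all genes. Quantile normalization gave 22 lower and 10 higher, and moved the median of all genes from -0.08 to 0.24. The share of all genes called with that normalization is not given here.

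Among the synthetases 13 of 21 fell and 1 rose. Rars (arginine) ran from 33.2 through a median of 183 to 388 CPM in Control cauda head embryos and from 0.165 through 7.53 to 47.9 CPM in cauda whole-sperm embryos. All 9 whole-sperm embryos lay below the head median, the ranges overlapping only between the lowest head embryos and the highest whole-sperm embryo. Its log2 fold change was -4.35 (SE 0.64, limma adjusted p = 2.1e-08).

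Yars ran from 7.29 through 61.8 to 131 CPM in head and up to 19.7 CPM in whole-sperm embryos, where it was undetected in 2 of 9, with a log2 fold change of -3.60 (SE 0.63, limma adjusted p = 9.7e-07). The mitochondrial Mars2 had medians of 61.3 and 8.98 CPM and a log2 fold change of -2.96 (SE 0.67, limma adjusted p = 0.00012). The 1 synthetase that rose was Farsb, from 45.6 through 109 to 309 CPM in head to 112 through 212 to 408 CPM in whole-sperm embryos. All 9 lay above the head median, within the upper part of the head range and beyond it, and the log2 fold change was 0.91 (SE 0.30, limma adjusted p = 0.0064). The synthetase genes followed here included 7 of the multi-synthetase complex (Eprs, Iars, Kars, Qars, Rars, Dars and Mars). Of these 7 genes 6 fell, with Mars at -1.44 (SE 0.65, limma adjusted p = 0.051).

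Among the modification genes 12 of 28 fell and 3 rose. Nsun5 had a median of 109 CPM in Control cauda head embryos and 1.42 CPM in cauda whole-sperm embryos, where it was undetected in 3 of 9 and reached at most 13.7 CPM. Its log2 fold change was -4.79 (SE 0.72, limma adjusted p = 3.1e-08), the largest fall of the 49, in a gene with fractional reads. Elp6 ran from 6.64 through 90 to 191 CPM in head embryos and was undetected in 3 whole-sperm embryos, with a median of 3.51 and a highest value of 36.8 CPM, and a log2 fold change of -4.28 (SE 0.58, limma adjusted p = 3.1e-09).

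Alkbh1 (-4.03, SE 0.59, limma adjusted p = 1.7e-08), Alkbh4 (-3.45, SE 0.65, limma adjusted p = 4.8e-06) and Trmt6 (-3.41, SE 0.52, limma adjusted p = 5.5e-08) were the other large falls, Trmt6 being the RNA-binding partner of the enzyme that methylates adenosine in tRNA. For these 5 modification genes all 9 whole-sperm embryos lay below the head median. Nsun4 rose: it ran from 84.3 through 252 to 783 CPM in head and from 593 through 830 to 1333 CPM in whole-sperm embryos. All 9 lay above the head median, with a log2 fold change of 1.56 (SE 0.34, limma adjusted p = 7.6e-05). Elp3 rose by 1.74 (SE 0.66, limma adjusted p = 0.019) and Alkbh5 by 0.66 (SE 0.26, limma adjusted p = 0.025). For cauda sperm the catalytic subunit of Elongator was thus higher while Elp5 and Elp6 were lower. Over the other settings the cauda value of Elp3 went down to 0.33, with limma adjusted p up to 0.834. With rete sperm Elp3 differed by -0.23 (SE 0.59, limma adjusted p = 0.786).

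**Figure D3:**
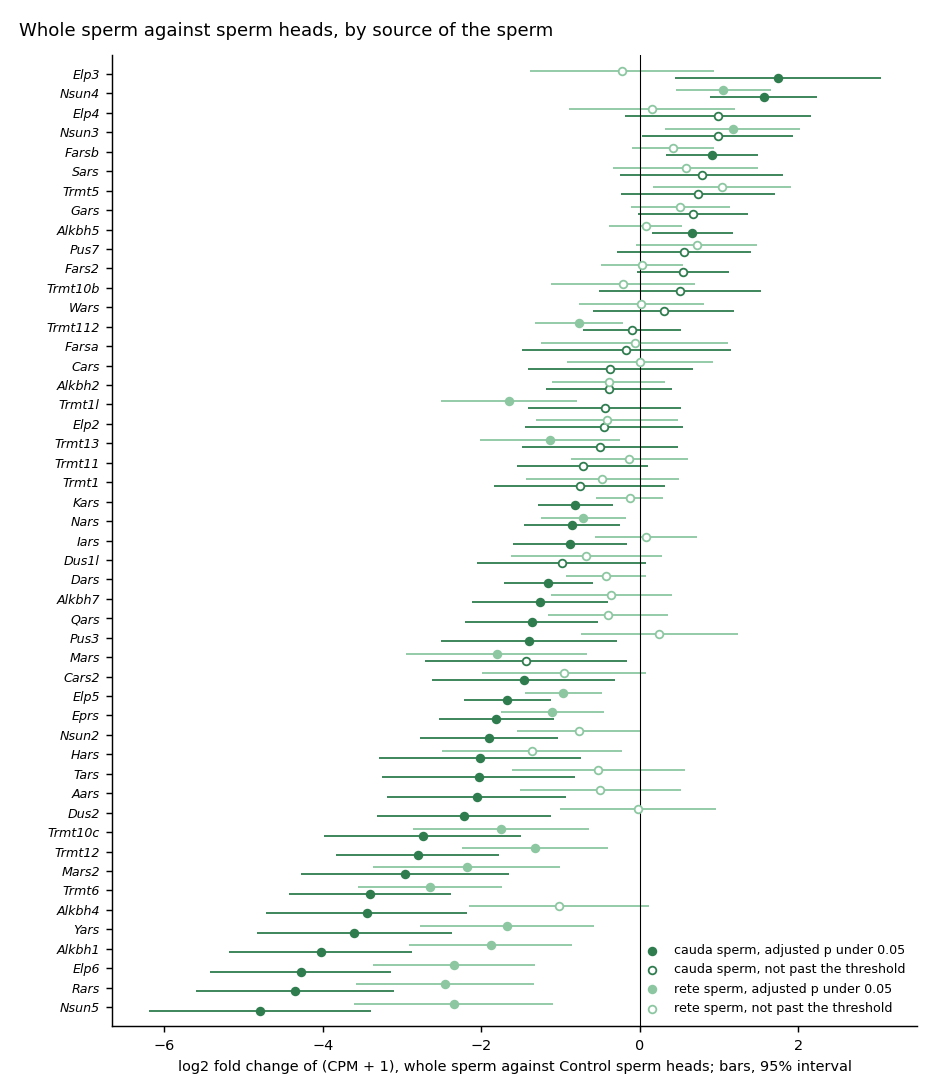
Log2 fold change of (CPM + 1) of whole-sperm against Control head embryos with its 95% interval, for cauda sperm (dark) and rete sperm (light), genes in the order of the cauda values. Filled points passed an adjusted p of 0.05 in limma. From Nsun5 at -4.79 to Elp3 at 1.74 the cauda values spread widely, and most rete values lie nearer to 0.

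With rete sperm 16 of the 49 genes fell and 2 rose, which is 18 called, where 33.6% of all genes were called (19.5% lower and 14.1% higher). The median log2 fold change of the 49 was -0.43, against 0.03 over all genes. Trmt6 fell most: it ran from 2.84 through 33.9 to 148 CPM in Control rete head embryos, and in rete whole-sperm embryos it was undetected in 1 of 12, with a median of 1.66 and a highest value of 24.1 CPM. All 12 lay below the head median, and the log2 fold change was -2.65 (SE 0.47, limma adjusted p = 1.6e-05).

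Rars fell by 2.46 (SE 0.57, limma adjusted p = 0.00071), with medians of 87.8 CPM in head and 14.7 CPM in whole-sperm embryos. Nsun5, Elp6 and Mars2 fell, with log2 fold changes of -2.35 (SE 0.64), -2.34 (SE 0.52) and -2.19 (SE 0.60) and limma adjusted p = 0.0038, 0.00044 and 0.0041. Alkbh1, Mars (methionine) and Trmt10c, a subunit of the mitochondrial enzyme that frees tRNAs at their 5' end, fell as well, with log2 fold changes of -1.88 (SE 0.52), -1.81 (SE 0.58) and -1.75 (SE 0.57) and limma adjusted p = 0.0046, 0.013 and 0.014. The 2 genes that rose encode mitochondrial enzymes of the Nsun family.

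Nsun4 had medians of 354 CPM in head and 797 CPM in whole-sperm embryos, with all 12 above the head median and a log2 fold change of 1.05 (SE 0.31, limma adjusted p = 0.0067). Nsun3 had medians of 11.7 and 26.9 CPM, 11 of 12 lay above the head median, and the log2 fold change was 1.17 (SE 0.43, limma adjusted p = 0.03). Whether the cauda and rete differences differ from each other was not tested.

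Beside these differences stands one in the state of the embryos. An index was formed in each embryo, the mean log2(CPM + 1) of 47 ribosome biogenesis genes, which the embryo makes, minus that of 23 maternal oocyte transcripts, which it removes. None of the 49 genes is in either list. The median of the index was -0.37 in Control and -0.0033 in LP cauda head embryos, -1.24 in Control and -0.19 in LP rete head embryos, and -3.76 in cauda and -3.26 in rete whole-sperm embryos. The 21 whole-sperm embryos all lay at or below -1.49, as did 21 of the 82 head embryos. With the index as a covariate 3 of the 49 genes were called for cauda sperm (8.34% of all genes) and 6 for rete sperm (11.5% of all genes).

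Pus7 was the member called higher in both with the covariate, by 1.79 (SE 0.45, limma adjusted p = 0.0075) for cauda and 1.25 (SE 0.36, adjusted p = 0.013) for rete sperm. Its medians were 76.9 and 52.8 CPM in Control cauda and rete head embryos and 123 and 69.8 CPM in cauda and rete whole-sperm embryos, with 1 rete whole-sperm embryo at 2030 CPM, and it is one of the genes with fractional reads. Without the covariate Pus7 was not called, with 0.56 (SE 0.43, limma adjusted p = 0.262) for cauda and 0.72 (SE 0.39, limma adjusted p = 0.139) for rete sperm. Elp6 was lower in both with it, by -1.82 (SE 0.51, limma adjusted p = 0.016) and -1.28 (SE 0.40, adjusted p = 0.026). Trmt11 for cauda sperm, and Trmt6, Trmt112, Trmt1l and Rars for rete sperm, were the other falls. For cauda sperm the sign turned with the covariate in 20 of the 49 genes, 10 of them called without it, and none of the 20 was called with it. The 2 that had been higher became -0.19 for Nsun4 and -0.48 for Farsb. The 8 that had been lower became 0.38 for Iars, 0.10 for Qars, 0.53 for Aars, 0.61 for Hars, 0.13 for Mars2, 0.33 for Cars2, 0.21 for Trmt10c and 0.11 for Nsun2. For rete sperm the sign turned in 11 genes, none of them called without it. The share of all genes whose sign turned is not given here. The covariate fit has 1 slope per gene for both preparations. Of Control cauda head embryos only embryos 14 (-2.04) and 23 (-4.74) lay within the index range of cauda whole-sperm embryos. Fitted apart (below), head and whole-sperm slopes were -0.56 and -0.22 for Nsun4 and 0.96 and 0.19 for Trmt10c. Those of Iars, Aars and Mars2 were steeper in whole-sperm embryos. The signs with separate slopes were not tested. Trmt11 for cauda sperm was -0.72 (SE 0.42, limma adjusted p = 0.13) without the covariate and -1.10 (limma adjusted p = 0.0127) when the embryos of few detected genes were left out of that fit. CPM is a share of each library, so a change in the total RNA of an embryo is not seen in these values. The cell number of an embryo was not measured.

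**Figure D4:**
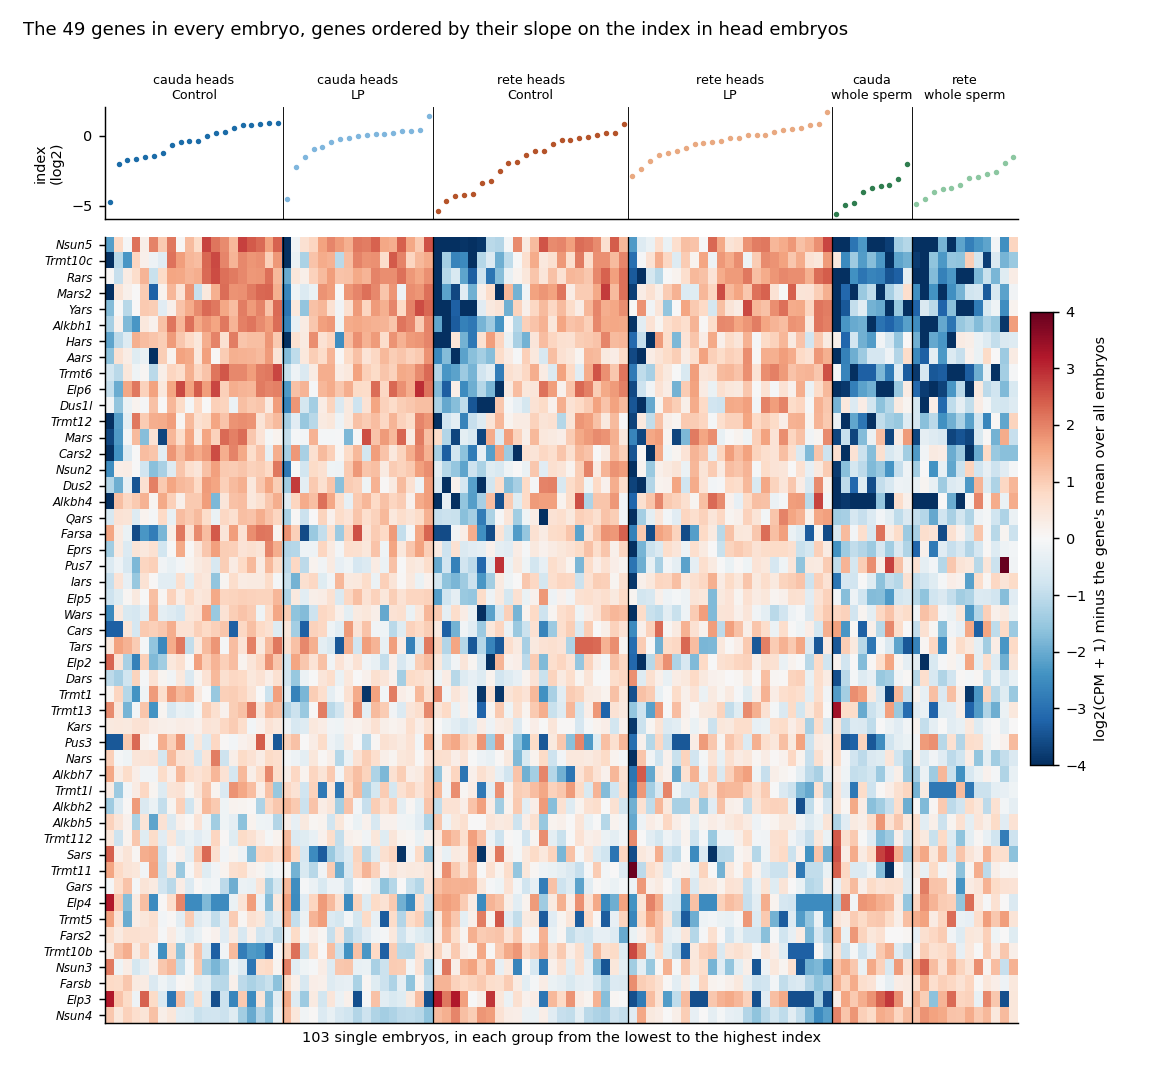
Log2(CPM + 1) of the 49 genes in all 103 embryos, each gene centred on its mean, with embryos ordered within groups by the index plotted above. Genes are ordered by their slope on the index in head embryos. Nsun5, Trmt10c and Rars at the top are low (blue) in embryos of low index and Nsun4, Elp3 and Farsb at the bottom high (red) there.

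The index also varied within each group, which allowed the genes to be followed across embryos that share a father's diet, source and preparation. The slope of each gene on the index was fitted with limma with group means in the model, a test added after the data had been seen. In the 82 head embryos 29 of the 49 genes rose with the index and 11 fell, where 73.9% of all genes were called (41.7% rising and 32.2% falling). The slope is in log2(CPM + 1) per unit of the index. The index and the gene are read from the same libraries, so a library's quality enters both, and its part was not tested.

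Of the synthetases 16 of 21 rose with the index and 3 fell. Rars rose by 0.91 (SE 0.07, limma adjusted p = 7.9e-21), Mars2 by 0.89 (SE 0.09, limma adjusted p = 7.2e-16) and Yars by 0.88 (SE 0.07, limma adjusted p = 1.2e-19) per unit. Hars rose by 0.79 (SE 0.09) and Aars (alanine) by 0.72 (SE 0.08), with limma adjusted p = 2e-12 and 2.5e-14. For Aars the lowest values in a group were found at 4.78 CPM in Control cauda, 1.86 CPM in Control rete and 0.797 CPM in LP rete head embryos, beside group medians of 163, 116 and 169 CPM.

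The 3 that fell were Farsb by 0.42 (SE 0.04, limma adjusted p = 1.6e-16), Fars2 by 0.29 (SE 0.05, limma adjusted p = 1.9e-07) and Gars by 0.27 (SE 0.06, limma adjusted p = 4.8e-05) per unit. The slopes of Farsb, Fars2 and Gars were negative in all 6 groups and those of Rars, Aars, Mars2 and Yars positive in all 6. All 7 synthetase genes of the multi-synthetase complex that were followed here rose with the index. Farsa, the partner subunit of Farsb, rose by 0.41 (SE 0.13, limma adjusted p = 0.0031), so the subunits of 1 enzyme moved in opposite directions across head embryos. In whole-sperm embryos the slope of Farsa was -0.07 (SE 0.27, limma adjusted p = 0.886).

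Of the modification genes 13 of 28 rose with the index and 8 fell. Nsun5 had the steepest slope of all 49, 1.11 (SE 0.07, limma adjusted p = 8.8e-26), followed by Trmt10c with 0.96 (SE 0.07, limma adjusted p = 3.1e-22) and Alkbh1 with 0.88 (SE 0.06, limma adjusted p = 2.6e-23). Nsun4 fell by 0.56 (SE 0.04, limma adjusted p = 1.4e-22) per unit, Elp3 by 0.44 (SE 0.12, limma adjusted p = 0.001) and Nsun3 by 0.37 (SE 0.09, limma adjusted p = 0.00023). Trmt10b fell by 0.32 (SE 0.10), Trmt5, which methylates guanosine beside the anticodon, by 0.29 (SE 0.10) and Elp4 by 0.28 (SE 0.12), with limma adjusted p = 0.0046, 0.0075 and 0.029. Elongator was thus split, with Elp2, Elp5 and Elp6 rising and Elp3 and Elp4 falling, and among the Nsun genes Nsun2 and Nsun5 rose while Nsun3 and Nsun4, both of the mitochondrion, fell.

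Nsun4 fell in all 6 groups, its slope running from -0.68 in LP rete head embryos to -0.18 in cauda whole-sperm embryos. Without the 2 head embryos farthest from the median index, 42 of the 49 genes were called, 32 rising and 10 falling. The share of all genes called without them is not given here. Elp4 was not called then (slope -0.19, limma adjusted p = 0.173).

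In the 21 whole-sperm embryos, where the index spanned less and the embryos were fewer, 8 of 48 genes rose with the index and 2 fell, where 18.4% of all genes were called (14.3% rising and 4.05% falling). Alkbh4 rose by 1.72 (SE 0.32, limma adjusted p = 0.00075), Nsun5 by 1.28 (SE 0.28, limma adjusted p = 0.0021) and Aars by 1.19 (SE 0.22, limma adjusted p = 0.00061). Rars, Mars2, Elp6, Mars and Iars were the other 5 that rose, by 1.18 (SE 0.28), 1.16 (SE 0.28), 1.06 (SE 0.30), 1.00 (SE 0.34) and 0.52 (SE 0.16). Trmt112 fell by 0.73 (SE 0.18, limma adjusted p = 0.0054) and Farsb by 0.35 (SE 0.11, limma adjusted p = 0.022). Without the embryo of few detected genes Mars, Iars and Farsb were not called (limma adjusted p = 0.104, 0.108 and 0.0537).

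Quantile normalization gave 6 rising and 4 falling in these embryos, and without the 2 farthest embryos 6 were called, 4 rising and 2 falling. For both settings the share of all genes called is not given here. The sign of the slope was the same in head and whole-sperm embryos for 36 of the 48 genes (75%), which is 25 positive in both and 11 negative in both, beside 72.1% of all genes. Yars and Trmt10c, steep in head embryos, had slopes of 0.25 (SE 0.34) and 0.19 (SE 0.31) in whole-sperm embryos, neither of them called. The difference between the preparations in slope was not tested.

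**Figure D5:**
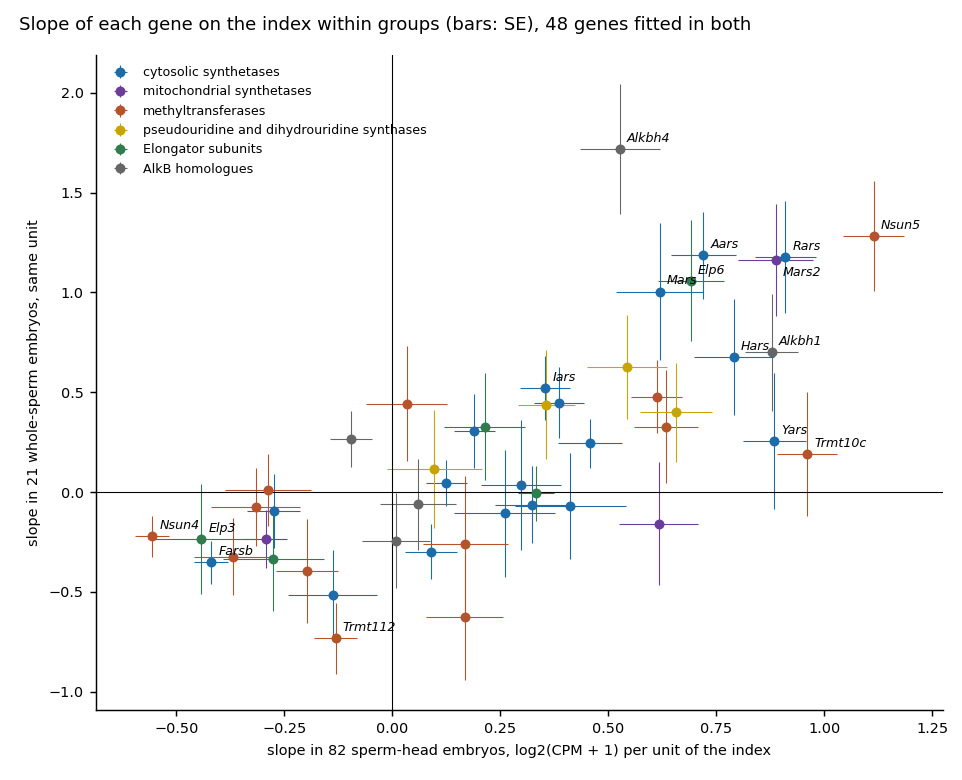
Slope of log2(CPM + 1) on the index, with its SE, in 82 head embryos (horizontal axis) and 21 whole-sperm embryos (vertical axis), for the 48 genes fitted in both, coloured by role. Nsun5, Rars, Mars2, Aars and Elp6 lie at the upper right, and Nsun4, Elp3 and Farsb at the lower left.

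Pairs of genes were described by the correlation of their deviations from group means over the 103 embryos, which share library and depth within an embryo. Alkbh1 and Nsun5 had r = 0.80, Nsun4 and Farsb r = 0.75, and Aars and Rars r = 0.72. Rars and Nsun4, among the lowest, had r = -0.66. The deviations were not adjusted for the index, on which each of these genes had a called slope in head embryos. Of genes whose products bind each other, Elp5 and Elp6 had r = 0.51 and Trmt11 and Trmt112 r = 0.50, whereas Elp2 and Elp3 had r = 0.12 and the phenylalanyl-tRNA synthetase subunits Farsa and Farsb r = -0.28. Rars and Aimp2, encoding a scaffold of the multi-synthetase complex, had r = 0.54. Of the other pairs read from that complex, Rars and Qars had r = 0.50, Kars and Aimp2 r = 0.39, and Mars and Eef1e1 r = -0.08.

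The rest of the tRNA pathway was read from lists of other genes. Of 24 genes of RNA polymerase III and its factors, which transcribe tRNA, 20 were lower and 1 was higher in cauda whole-sperm than in Control cauda head embryos, 11 were lower in the rete comparison, and 21 rose with the index in head embryos. Of all genes 34.3% were lower and 24.4% higher for cauda and 19.5% lower for rete sperm, and 41.7% rose with the index. Their median log2 fold change for cauda sperm was -2.05, against -0.08 over all genes. Tbp, which places the polymerase on its promoters, was lower by -2.55 (SE 0.35, limma adjusted p = 3.7e-09) for cauda and -1.65 (SE 0.31, limma adjusted p = 5.2e-05) for rete sperm. The 1 gene that was higher, Gtf3a, encodes TFIIIA, the factor that serves 5S ribosomal RNA genes and not tRNA genes, at 1.37 (SE 0.46, limma adjusted p = 0.0086), and it fell with the index by 0.36 (SE 0.09, limma adjusted p = 0.00014) in head embryos.

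Of 20 genes of tRNA processing, splicing and export, 13 were lower for cauda and 9 for rete sperm and none higher, and 18 rose with the index in head embryos while 1 fell. These are 65% lower for cauda (34.3% of all genes), 45% lower for rete (19.5%) and 90% rising with the index (41.7%). This list held the only tRNA gene of these lists called for the father's diet. Xpot, the exporter of tRNA from the nucleus, was higher in LP than in Control rete head embryos, from undetected in 4 of 22 with a median of 25.9 CPM and a highest value of 85.7 CPM to detected in all 23 with a median of 60.4 and a highest value of 142 CPM. Most of both ranges overlapped. The log2 fold change was 1.74 (SE 0.49, limma adjusted p = 0.046). With the index as a covariate it was 0.40 (limma adjusted p = 0.588), and with a pseudocount of 0.1 the adjusted p was 0.055. In head embryos Xpot rose with the index by 0.94 (SE 0.08, limma adjusted p = 2.85e-19).

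Of 26 other tRNA modification genes, 13 were lower and 4 higher for cauda sperm, and 6 lower and 2 higher for rete sperm. That is 50% lower and 15.4% higher for cauda sperm, beside 34.3% and 24.4% of all genes, and 23.1% lower and 7.69% higher for rete sperm, beside 19.5% and 14.1%, so the share lower for rete sperm was near that of all genes. Trub2, a pseudouridine synthase of mitochondrial RNA, was lower by -4.46 (SE 0.73, limma adjusted p = 2.6e-07) and -2.12 (SE 0.65, limma adjusted p = 0.0096). Kti12, an Elongator-associated protein in yeast, was lower by -3.38 (SE 0.56, limma adjusted p = 4e-07) and -2.01 (SE 0.51, limma adjusted p = 0.0017). Lcmt2, of the wybutosine pathway, was higher by 2.98 (SE 0.52, limma adjusted p = 9.5e-07) and 2.27 (SE 0.46, limma adjusted p = 0.00015).

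Of 5 partners of the synthetases, Mtfmt, which formylates the mitochondrial initiator tRNA, was higher by 1.95 (SE 0.44, limma adjusted p = 0.0001) for cauda and 1.48 (SE 0.39, limma adjusted p = 0.0029) for rete sperm. Aimp2 was lower by -2.77 (SE 0.54, limma adjusted p = 8.7e-06) and -2.03 (SE 0.48, limma adjusted p = 0.00086). Of the nucleases that can cut tRNA into fragments 2 were in the table. Rnaset2b was higher in whole-sperm embryos, with a median of 121 CPM against 34.7 CPM in Control cauda head embryos, by 1.71 (SE 0.43, limma adjusted p = 0.00053) for cauda and by 1.20 (SE 0.39, limma adjusted p = 0.013) for rete sperm. With the index as a covariate its cauda value turned to -0.22 and was not called. Dicer1 differed by -0.41 (SE 0.21, limma adjusted p = 0.084) and -0.13 (SE 0.19, limma adjusted p = 0.613), the cauda value being -0.52 once embryos with few detected genes were left out (limma adjusted p = 0.0204).

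Because synthetase genes belong to the amino acid response, 16 genes of that response were also read. Atf4 itself was detected in every embryo, with medians of 248 and 290 CPM in Control and LP cauda head embryos, 241 and 276 CPM in Control and LP rete head embryos, and 201 and 190 CPM in cauda and rete whole-sperm embryos. The groups overlapped, and Atf4 differed by -0.20 (SE 0.24, limma adjusted p = 0.49) between cauda whole sperm and heads and by 0.07 (SE 0.19, limma adjusted p = 0.849) between LP and Control rete heads. None of the 16 was called for diet. For cauda sperm 7 were lower and 2 higher than with heads (43.8% and 12.5%, beside 34.3% and 24.4% of all genes), among them the serine synthesis genes Psat1 (-3.30, SE 0.49, limma adjusted p = 2.1e-08) and Phgdh (-3.21, SE 0.69, limma adjusted p = 4.7e-05). With the index 8 rose and 4 fell in head embryos, Psat1 by 0.62 (SE 0.05, limma adjusted p = 5.9e-19), and Slc7a11, the cystine transporter, fell by 0.34 (SE 0.08, limma adjusted p = 0.00024). Of all genes 41.7% rose and 32.2% fell with the index, beside 50% and 25% of these 16.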

How the data were processed

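The authors deposited 1 table of 7894 genes by 103 embryos. Its header does not name the unit, and the deposited values were read as CPM, since low values of an embryo are multiples of a common step and columns sum to 92.1 to 98.1% of a full library. Steps of a hundredth of a read show estimated counts, with a median of 86.4% of values under 60 reads whole (tolerance 0.001 reads), so no count model was used. The table's sort column, a score the authors deposited, has 5.00 as its lowest value. Per the submitters' processing notes, Bowtie and mm10 were used. How genes were counted is not given in the sources used here, nor is the strand setting. Library preparation used a Nextera kit for single cells, per the labels.

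limma 3.58.1 (R 4.3.3; trend, robust) was fitted to log2(CPM + 1) for genes that reached 5 CPM in 9 or more embryos, in the 82 head, the 21 whole-sperm or all embryos, with Benjamini-Hochberg adjustment over all genes. The scale understates changes of low genes, and fold changes among values near 1 read carry large counting error. The fit was tested on simulated data with 200 changed genes. Python 3.11.15, numpy 2.4.6 and pandas 2.3.3 did the rest. Members, lists and naming rules were chosen with earlier results of these data known. The text names called members up to 8 a direction, or the 3 of smallest p, 3 of the highest and 1 of the lowest level per role, 5 of the largest and 3 of the smallest spread, up to 3 called genes per list and direction, and Atf4, and other names were chosen after their values were seen. The labels do not say that equal embryo numbers pair embryos, and the designed fit did not pair them. Deviations of equally numbered embryos had a median r of 0.0075 over 115 pairs, against 0.0049 for different numbers. Such a median cannot exclude a shared father or injection date. Alternatives were pseudocounts of 0.1 and 5, no filter or 10 CPM, quantile and median-of-ratios scaling, a replicate block, leaving out embryos of few detected genes (over 3 median absolute deviations low), the index as a covariate and, for slopes, leaving out the 2 farthest embryos.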

Additional observations from a re-analysis of the deposited data

Results flagged for a closer look

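In the group of 9 cauda whole-sperm embryos, 5 of 49 genes had a lowest embryo far from the others on the log2(CPM + 1) scale, by the gap to its neighbour against the whole range, where chance flags about 1 gene in 20. Embryo 5, which also had few detected genes, was far below the rest for 3 synthetase genes: Eprs at 12.4 CPM with a group median of 29.3 CPM, Aars at 0.33 CPM with a median of 40.3 CPM, and Dars at 2.81 CPM with a median of 29 CPM. Embryo 6 was far below for Cars2 at 0.1 CPM, the value written for 0, with a group median of 12 CPM, and embryo 10 for Trmt1l at 0.1 CPM with a median of 8.56 CPM.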

How the results depend on the processing

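For diet in rete heads none of the 49 genes was called, but 1 was with a pseudocount of 0.1, 2 with quantile normalization, 3 when embryos of few detected genes were left out and 4 with median-of-ratios scaling. In this section the share of all genes called under an alternative is not given. For whole sperm with the covariate it is given above, with the limits of that fit. For whole sperm against heads 29 calls with cauda and 18 with rete sperm became 3 and 6 with the index as a covariate, and under it cauda values reversed for 20 of the 49 genes, among them Nsun4 (-0.19), Farsb (-0.48), Mars2 (0.13), Mars (0.79), Iars (0.38), Qars (0.10), Aars (0.53), Hars (0.61), Nsun2 (0.11), Trmt10c (0.21) and Cars2 (0.33), and for the other genes Rnaset2b (-0.22) and Atf4 (0.54). Of values not past the threshold as reported, Atf4 for diet in rete heads became -0.0138 with quantile normalization and -0.26 with the covariate, and for cauda whole sperm 0.0074 with quantile and 0.021 with median-of-ratios scaling. Dicer1 for rete sperm became 0.016 with quantile normalization and 0.038 with the replicate block, and whole-sperm slopes became -0.00776 for Yars and -0.058 for Trmt10c with quantile normalization and -0.22 for Yars without the 2 farthest embryos. For slopes in whole-sperm embryos 10 calls became 6 with a filter at 10 CPM, which tests fewer genes, and 6 without the 2 embryos farthest in the index. The cause of the other changes was not tested. With the replicate block 1 gene was called for diet in rete heads, 27 and 17 for cauda and rete whole sperm against heads, and 37 and 9 for the slopes. Over the named genes and alternatives 902 values kept direction and side of the threshold, 50 lost the call, 19 gained it and 22 reversed. The 902 include values from fits of head embryos that a changed filter left as they were. Leaving out the filter changed no count of called members in any of these comparisons. Depth limits the genes of low level most, since 1 read was worth up to 1.89 CPM.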
